A study of Homo sapiens with 36 samples.

Results

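The comparison set EA.hy926 cells that had grown for 6 weeks with 10 or 100 nM perfluorooctanoic acid (PFOA) against cells that had grown for 6 weeks with vehicle or with 1 nM PFOA. It was formed by pooling the libraries of 4 labelled groups at 6 weeks: the 3 at 10 nM and the 3 at 100 nM made 1 pool of 6, and the 3 of vehicle and the 3 at 1 nM made the other pool of 6. These are 12 of the 36 libraries of the series. All 4 groups were wild-type cells of the same line and received 0.05% DMSO, so vehicle and exposed cells shared the solvent. Of the 18048 genes with values, the 12201 with a mean normalised read count (reads divided by a size factor per library, by the authors) of at least 10 over the 12 libraries were tested. The study asked how gene expression responds to concentration under short micromolar and long nanomolar exposure.

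EA.hy926 is an immortal hybrid of human umbilical vein endothelium and the lung carcinoma line A549, so it carries endothelial and carcinoma-derived traits in 1 line. PFOA is a persistent perfluoroalkyl acid that binds serum albumin and activates the fatty acid sensor PPAR-alpha in rodent liver. Cells of the 6-week exposure were taken while being passaged with trypsin, pelleted, rinsed and stored in TRIzol. Immediate early genes, which lead the results below, are transcribed within minutes of a signal through MAP kinases, calcium, cyclic AMP or serum response factor without new protein synthesis. Their products are mostly transcription factors such as the FOS and EGR families, and their messengers are short-lived. MAP kinase phosphatases and Sprouty proteins, induced by the same signals, then damp the pathway.

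The 12 libraries held 18393069 to 19407559 recovered reads each, with a mean of 18678200 at 10 and 100 nM and 19105700 in vehicle and 1 nM (exact permutation test, two-sided, p = 0.0108). A read was found for 14581 to 14704 genes at 10 and 100 nM and 14192 to 14598 in vehicle and 1 nM (exact permutation p = 0.00866). Most of the variation between them ran along 1 direction. The first principal component of log2(count + 1) held 83.8% of the variance and the second 6.45%. Scores on the first component lay between 7.74 and 84.3 (median 44.6) in the 6 libraries at 10 and 100 nM, and between -116.5 and 62.0 (median -44.5) in the 6 of vehicle and 1 nM. In 5 of the 6 libraries of vehicle and 1 nM the score was below 0, and the remaining one, replicate 1 at 1 nM, lay among the libraries at 10 and 100 nM with 62.0. The pools differed by 91.8 (exact permutation test, two-sided, p = 0.0152, or 0.0292 after adjustment over 3 library measures). Across genes, which are not independent replicates, the loading on this component correlated with transcript GC content (r = -0.72) and with log2 transcript length (r = 0.39), and the pooled difference of a gene correlated with its loading at r = 0.99.

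Cytosolic ribosomal protein genes took 9.36% to 16.3% of the summed counts at 10 and 100 nM (median 12.4%) and 11.4% to 19.5% in vehicle and 1 nM (median 18.3%). Again replicate 1 at 1 nM stood with the libraries at 10 and 100 nM, at 11.4%, while the other 5 of its pool were at 17.3% or above. The exact permutation p of the pool difference was 0.0195 (0.0292 adjusted over the 3 measures). Mitochondrially encoded genes took 5.99% to 9.70% at 10 and 100 nM and 5.58% to 11.4% in vehicle and 1 nM, with an exact permutation p of 0.0563. The deposited scaling left summed normalised counts of 1.37e+07 to 1.74e+07 at 10 and 100 nM and 1.41e+07 to 3.20e+07 in vehicle and 1 nM. Every pooled difference of a gene therefore stands beside a shift in library composition. The fits given further on hold a library measure fixed. That measure was computed from these same counts, so such fits cannot tell where the shift came from.

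Across the 12201 genes, limma with a mean for each of the 4 doses called 4533 genes at a Benjamini-Hochberg adjusted p under 0.05 (37.2%). Of these, 2176 rose at 10 and 100 nM (17.8%) and 2357 fell (19.3%). The calls lay at the edge of the threshold: 3324 genes shared the smallest adjusted p of 0.0462, and 6987 genes (57.3%) had an unadjusted p under 0.05. A difference of at least 2-fold was reached by 2885 of the called genes. The median difference over all tested genes was 0.05 on the log2 scale.

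The number of calls rested on single libraries. It was 0 when any 1 of vehicle replicates 1 and 3, replicate 2 at 1 nM or the 6 libraries at 10 and 100 nM was left out, 1 without replicate 3 at 1 nM, 5828 without vehicle replicate 2, and 8418 without replicate 1 at 1 nM. It also differed by model and by scaling. The quasi-likelihood test of edgeR on the recovered reads, another model with its own scaling, gave 321 higher and 2455 lower genes. The median of all genes was 0.07 in that fit. Limma on reads scaled by the library total gave 5126 higher (42.0%) and 1080 lower (8.85%), with the median of all genes at 0.63. A fit that holds the score on the first component fixed called 2 genes (0.0164%), both higher.

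A measure that uses no model is whether the 6 libraries of 1 pool all lie beyond the 6 of the other. That held for 67 genes (0.549%), of which 42 were higher at 10 and 100 nM (0.344%) and 25 lower (0.205%). On reads scaled by the library total it held for 62 higher (0.508%) and 10 lower genes (0.0820%). At the deposited scaling, 33 of the higher and 18 of the lower genes were called. Without replicate 1 at 1 nM the pools did not overlap for 2399 genes on the higher side (19.7%) and 2680 on the lower side (22.0%). For 4294 of the 4533 called genes (94.7%) the count of that library lay within the range of the 6 libraries at 10 and 100 nM. The genes described first are those for which it did not.

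FOSB, which encodes an AP-1 subunit of the FOS family, was higher in every library at 10 and 100 nM. Its normalised count ran from 1564 to 1972 with a median of 1756 at 10 and 100 nM, against 447 to 916 with a median of 622 in vehicle and 1 nM. By dose, in rising order, it averaged 719.9 ± 172 in vehicle, 576 ± 198 at 1 nM, 1848 ± 111 at 10 nM and 1652 ± 94.1 at 100 nM (SD, n = 3 each). Replicate 1 at 1 nM, which stood with the libraries at 10 and 100 nM on the first component, had 477 counts of FOSB and so stood with vehicle for this gene. The pooled log2 difference was 1.48 ± 0.19 (SE, limma, adjusted p = 0.0462). With the first component as a covariate it was 1.65 ± 0.20 with an adjusted p of 0.0342, and FOSB was the gene with the smallest p in that fit. With the ribosomal share as the covariate the difference was 1.62 and was not called (limma, adjusted p = 0.272). Without any 1 of 9 of the 12 libraries the call was also lost, with adjusted p-values by limma of 0.0526 to 0.111, while the difference stayed between 1.40 and 1.61 over all 12 omissions.

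FOS, the founding partner of JUN in AP-1, had 1522 to 3325 counts (median 2398) at 10 and 100 nM, against 162 to 1128 (median 314) in vehicle and 1 nM. EGR1, a zinc finger factor induced through serum response factor, had 531 to 1395 counts (median 938) at 10 and 100 nM, against 58.5 to 456 (median 129) in vehicle and 1 nM. Both differed by 2.60 on the log2 scale (SE 0.48 for FOS and 0.46 for EGR1), the largest differences among the 16 genes named by rank. For both, the highest library of the vehicle and 1 nM pool was replicate 1 at 1 nM, followed by vehicle replicate 3, so the spread within that pool was wide although the pools did not touch. The pools of EGR1 did overlap on reads scaled by the library total.

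The proximal promoters of FOSB, FOS, EGR1 and of DUSP1, the MAP kinase phosphatase described further on, are shown. All 4 genes were called higher here. Whether they responded to a shared upstream signal was not tested. The windows run from 250 bases before to 50 bases after the start of the RefSeq gene model in GRCh38.p14. They are FOSB on the plus strand at chr19:45467746-45468045, FOS on the plus strand at chr14:75278578-75278877, EGR1 on the plus strand at chr5:138465229-138465528 and DUSP1 on the minus strand at chr5:172771146-172771445. Capitals mark TGACG, the core of a cyclic AMP response element, on either strand (CGTCA where it lies on the other strand), the full palindrome TGACGTCA, which contains TGACG on both strands, the TATA motif TATAAA, and the CArG box bound by serum response factor.
FOSB: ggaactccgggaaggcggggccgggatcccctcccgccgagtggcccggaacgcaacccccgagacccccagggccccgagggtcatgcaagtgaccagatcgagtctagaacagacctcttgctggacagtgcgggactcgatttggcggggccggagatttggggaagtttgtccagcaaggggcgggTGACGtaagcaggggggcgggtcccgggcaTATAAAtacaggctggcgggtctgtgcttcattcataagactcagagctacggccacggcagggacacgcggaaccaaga
FOS: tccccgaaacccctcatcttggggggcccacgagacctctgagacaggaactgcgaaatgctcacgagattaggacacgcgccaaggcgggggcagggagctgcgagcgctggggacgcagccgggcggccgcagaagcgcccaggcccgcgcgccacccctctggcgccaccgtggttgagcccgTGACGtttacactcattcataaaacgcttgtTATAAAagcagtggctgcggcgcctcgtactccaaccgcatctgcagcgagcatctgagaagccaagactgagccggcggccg
EGR1: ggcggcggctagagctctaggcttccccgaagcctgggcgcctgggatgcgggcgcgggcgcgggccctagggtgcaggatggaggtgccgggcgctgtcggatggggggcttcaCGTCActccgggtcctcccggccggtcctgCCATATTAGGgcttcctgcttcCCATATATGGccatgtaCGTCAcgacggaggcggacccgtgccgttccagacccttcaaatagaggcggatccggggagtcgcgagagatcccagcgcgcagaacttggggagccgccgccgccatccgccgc
DUSP1: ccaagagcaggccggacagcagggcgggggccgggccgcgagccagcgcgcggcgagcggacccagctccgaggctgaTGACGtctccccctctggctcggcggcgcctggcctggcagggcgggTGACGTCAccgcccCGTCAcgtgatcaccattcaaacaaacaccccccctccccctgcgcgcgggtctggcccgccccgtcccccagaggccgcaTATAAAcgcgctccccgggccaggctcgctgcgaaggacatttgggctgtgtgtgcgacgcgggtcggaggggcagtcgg

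The FOSB and FOS windows had the same layout, with TGACG beginning 60 and 64 bases before the start and TATAAA beginning 30 and 33 bases before it. The EGR1 window had 2 CArG boxes, beginning 105 and 83 bases before the start, and no TATAAA. It also held TGACG on the other strand, beginning 135 and 66 bases before the start. The DUSP1 window had the palindrome TGACGTCA beginning 125 bases before the start and TATAAA beginning 30 bases before it. Outside the palindrome it held TGACG beginning 172 bases before the start and, on the other strand, 111 bases before it. Sites further upstream than these windows were not searched. Of all 35116 promoter windows of this length in the RefSeq table, 24.6% held TGACG, 1.85% TGACGTCA, 11.5% TATAAA and 1.29% a CArG box on either strand. These matches describe the letters of the windows and not the binding of a factor.

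Of the 28 immediate early genes listed, 25 were tested, and EGR2, EGR3 and NR4A3 fell below the filter on low counts. The test called 15 of the 25 higher (60.0%, against 17.8% of all tested genes) and 0 lower, with a median log2 difference of 0.80. All 6 libraries at 10 and 100 nM lay above all 6 of vehicle and 1 nM for 8 of the 25, against 0.344% of all tested genes. These were FOSB, FOS, EGR1, ATF3, NR4A2, KLF4, ZFP36 and RHOB. On reads scaled by the library total, 20 were called higher and 9 did not overlap (against 0.508% of all tested genes), with a median of 1.38 beside the 0.63 of all genes.

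ATF3, a stress-induced member of the ATF family, had 659 to 1026 counts (median 886) at 10 and 100 nM, against 210.0 to 532 (median 333) in vehicle and 1 nM. Its log2 difference was 1.40 ± 0.26. NR4A2, an orphan nuclear receptor that is itself an early response gene, had 44.9 to 133 counts (median 78.3) at 10 and 100 nM, against 6.65 to 40.4 (median 17.8) in vehicle and 1 nM, a difference of 2.22 ± 0.40. KLF4, a zinc finger factor that restrains inflammatory genes in endothelium, had 168 to 232 counts (median 173) at 10 and 100 nM, against 39.6 to 124 (median 74.8) in vehicle and 1 nM. For NR4A2 and KLF4 the library that overlapped elsewhere, replicate 1 at 1 nM, had 24 and 84.7 counts and lay near the middle of its own pool.

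ZFP36, which encodes tristetraprolin and speeds decay of messengers with AU-rich ends, had 561 to 765 counts (median 649) at 10 and 100 nM, against 148 to 526 (median 271) in vehicle and 1 nM. RHOB, a small GTPase whose gene responds early to growth factors and DNA damage, had 1026 to 1259 counts (median 1133) at 10 and 100 nM, against 393 to 791 (median 487) in vehicle and 1 nM. The differences were 1.20 ± 0.25 for ZFP36 and 1.14 ± 0.18 for RHOB (limma, adjusted p = 0.0462 for both). For RHOB a single library, replicate 1 at 1 nM with 791 counts, stood above the other 5 of its pool.

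Other members rose with overlapping pools. NR4A1, a nuclear receptor of the same family as NR4A2, had 271 to 441 counts (median 366) at 10 and 100 nM, against 110.3 to 302 (median 221) in vehicle and 1 nM. KLF6 (1.64 ± 0.41), MYC (1.11 ± 0.34) and CCN1, a secreted matrix protein (1.11 ± 0.31), were also called higher. For these 3 genes replicate 1 at 1 nM had counts of 792, 3513 and 11270 and lay inside the range at 10 and 100 nM. The JUN side of AP-1 was not called at the deposited scaling. JUN had 5337 to 9042 counts (median 8336) at 10 and 100 nM, against 3935 to 8392 (median 6906) in vehicle and 1 nM, a difference of 0.35 ± 0.24 (limma, adjusted p = 0.219). JUN was called at 0.94 both on reads scaled by the library total (adjusted p = 0.0428) and after quantile normalization (adjusted p = 0.0459). The medians of all genes in these fits were 0.63 and 0.05. JUNB differed by 0.07 ± 0.33, IER3, an early response inhibitor of cell death, by -0.39 ± 0.30 and FOSL1, a FOS-family subunit, by -0.78 ± 0.30. KLF2, a flow-responsive endothelial factor, differed by 0.58 ± 0.23 (limma, adjusted p = 0.0580). On reads scaled by the library total it differed by 1.17 with a call, beside the 0.63 of all genes.

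Among 18 tested genes of MAP kinase feedback, 11 were called higher (61.1%, against 17.8% of all tested genes) and 1 lower. The median difference was 0.75. DUSP1, a nuclear phosphatase that switches off p38, JNK and ERK, had 3323 to 5169 counts (median 4813) at 10 and 100 nM, against 1126 to 3551 (median 1922) in vehicle and 1 nM, a difference of 1.25 ± 0.28. DUSP5 and DUSP6, phosphatases directed at ERK, differed by 1.56 ± 0.34 and 1.47 ± 0.37. SPRY2, an inhibitor of receptor tyrosine kinase signalling, differed by 1.88 ± 0.49. For DUSP1, DUSP5, DUSP6 and SPRY2 the highest count in vehicle and 1 nM was that of replicate 1 at 1 nM, and it lay inside the range at 10 and 100 nM.

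SPRY4, a related inhibitor, and PHLDA1, a gene induced by growth factors, did not overlap between the pools. Of all tested genes, 0.344% were higher without overlap. SPRY4 had 845 to 1162 counts (median 1041) at 10 and 100 nM, against 384 to 807 (median 689) in vehicle and 1 nM. PHLDA1 had 4496 to 5472 counts (median 4593) at 10 and 100 nM, against 2179 to 4354 (median 3219) in vehicle and 1 nM. Both pools touched again when reads were scaled by the library total. The exception in the other direction was ETV4, an ETS factor downstream of ERK, which was called lower at -1.38 ± 0.42.

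HES1, a repressor that is the main transcriptional target of Notch in many cell types, was the second gene by p in the pooled comparison. It had 2262 to 3097 counts (median 2482) at 10 and 100 nM, against 367 to 1257 (median 744) in vehicle and 1 nM. By rising dose it averaged 915 ± 317 in vehicle, 621 ± 318 at 1 nM, 2687 ± 358 at 10 nM and 2366 ± 164 at 100 nM (SD, n = 3 each). The pooled difference was 1.82 ± 0.25 (limma, adjusted p = 0.0462), and 1.33 ± 0.24 with the component as a covariate (adjusted p = 0.419). HEY1, another Notch target and a repressor in arterial endothelium, had 58.3 to 98.0 counts (median 82.0) at 10 and 100 nM, against 8.08 to 51.5 (median 20.9) in vehicle and 1 nM. Those 2 genes were the only ones of the 18 tested in the Notch list whose pools did not overlap at the deposited scaling. Of all tested genes, 0.344% were higher without overlap.

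Of the Notch list, 7 genes were called higher (38.9%, against 17.8% of all tested genes) and 1 lower, with a median of 0.77. The ligand genes JAG1 and DLL1 differed by 0.80 ± 0.28 and 0.80 ± 0.26, both called. JAG1 had 1603 to 3682 counts (median 2214) at 10 and 100 nM, against 982 to 2687 (median 1146) in vehicle and 1 nM. The receptor NOTCH1 was not called, at 0.24 ± 0.20 (limma, adjusted p = 0.293), with 1154 to 1420.4 counts at 10 and 100 nM and 811 to 1385 in vehicle and 1 nM. It was called, at 0.83, on reads scaled by the library total (limma, adjusted p = 0.0428), where the median of all genes was 0.63.

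ID2, an inhibitor of basic helix-loop-helix factors and a target of BMP receptors, had 79.8 to 126 counts (median 110.2) at 10 and 100 nM, against 19.4 to 64.5 (median 26.3) in vehicle and 1 nM. Its difference was 1.75 ± 0.30. Its relatives were not called: ID1 differed by 0.06 ± 0.27 (limma, adjusted p = 0.847) and ID3 by -0.65 ± 0.32 (adjusted p = 0.103). Of 24 tested genes of the BMP and TGF-beta response, 8 were called higher (33.3%) and 2 lower (8.33%). The shares of all tested genes were 17.8% and 19.3%. SMAD7, the feedback inhibitor of the receptors, was among the higher at 1.66 ± 0.50, and the ligand gene TGFB1 among the lower at -1.24 ± 0.41. TGFB1 had 3914 to 7416 counts (median 4966) at 10 and 100 nM, against 4110.0 to 24159 (median 13165) in vehicle and 1 nM, with the lowest count of its pool in replicate 1 at 1 nM.

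Endothelial inflammation genes rose more often than they fell. Of 24 tested, 12 were called higher (50%) and 3 lower (12.5%), against 17.8% and 19.3% of all tested genes. The median was 0.62. The pools did not overlap for IL6, CXCL8, IL1A and IL1B, while 0.344% of all tested genes were higher without overlap. IL6, a cytokine that endothelium releases on activation, had 101 to 158 counts (median 118) at 10 and 100 nM, against 16.2 to 80.2 (median 38.5) in vehicle and 1 nM, a difference of 1.71 ± 0.36. CXCL8, the neutrophil attractant interleukin 8, had 474 to 1161 counts (median 574) at 10 and 100 nM, against 124 to 379 (median 235) in vehicle and 1 nM, a difference of 1.53 ± 0.33. For all 4 cytokine genes each library at 10 and 100 nM lay above each of vehicle and 1 nM.

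IL1A had 531 to 824 counts (median 632) at 10 and 100 nM, against 213 to 493 (median 329) in vehicle and 1 nM. IL1B had 2585 to 3161 counts (median 2887) at 10 and 100 nM, against 1045 to 2432 (median 1699) in vehicle and 1 nM. The differences were 0.97 ± 0.23 for IL1A and 0.87 ± 0.21 for IL1B. NFKBIZ, an inducible regulator of NF-kB target genes that include IL6, was called higher at 1.37 ± 0.33. NFKB2 and RELB, the subunits of the noncanonical NF-kB arm, were called lower at -1.48 ± 0.45 and -1.22 ± 0.39, and the adhesion molecule gene ICAM1 was not called, at -0.29 ± 0.35. SELE and VCAM1, adhesion molecules of activated endothelium, were below the filter.

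Of 18 tested genes of coagulation and fibrinolysis, 6 were called higher (33.3%, against 17.8% of all tested genes) and 0 lower. THBD, which encodes the anticoagulant receptor thrombomodulin, had 5975 to 8817 counts (median 6990.3) at 10 and 100 nM, against 2472 to 7425 (median 3245) in vehicle and 1 nM, a difference of 1.01 ± 0.29. THBS1, a matrix protein that activates latent TGF-beta, differed by 1.83 ± 0.48. F3, which encodes tissue factor, the trigger of clotting, had low counts of 14.7 to 26.8 at 10 and 100 nM and 1.65 to 18 in vehicle and 1 nM. In all 3 genes replicate 1 at 1 nM had the highest count of its pool, inside the range at 10 and 100 nM.

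The labelled cell type was checked against its markers. PECAM1, CDH5, ENG and NOS3 were expressed in every library, while CLDN5, a tight junction gene, and TAL1, a factor of blood and vessel precursors, were at 0 in all 12, and KDR, the main VEGF receptor, had at most 4.59 counts. Of 24 tested endothelial identity genes, 7 were called higher (29.2%) and 5 lower (20.8%), against 17.8% and 19.3% of all tested genes. The median was 0.07. CDH5, the junction protein VE-cadherin, was called higher at 0.71 ± 0.26 and TEK, the angiopoietin receptor, at 1.51 ± 0.42. ENG, a TGF-beta co-receptor, was called lower at -1.26 ± 0.40 and had 7531 to 13173 counts (median 9301) at 10 and 100 nM, against 7781 to 45737 (median 23358) in vehicle and 1 nM. The junction gene PECAM1 had -0.26 ± 0.16 (limma, adjusted p = 0.179) and the endothelial nitric oxide synthase gene NOS3 -0.55 ± 0.27 (adjusted p = 0.102), neither called. The summed share of the endothelial genes was 0.311% to 0.331% of counts at 10 and 100 nM and 0.315% to 0.433% in vehicle and 1 nM.

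Epithelial markers were present in part: CDH1, which encodes E-cadherin, and CLDN3 were at 0 in all 12 libraries, EPCAM had at most 18.6 counts, and 10 of the 20 listed genes passed the filter. Of these 10, 5 were called lower (50%, against 19.3% of all tested genes) and 0 higher, with a median of -1.13. KRT18, a keratin of simple epithelia, had 8461 to 26058 counts (median 12526) at 10 and 100 nM, against 11296 to 65931 (median 37253) in vehicle and 1 nM, and KRT8, its partner, differed by -1.42 ± 0.44. The summed share of the epithelial list was 0.153% to 0.321% at 10 and 100 nM and 0.195% to 0.578% in vehicle and 1 nM. Leukocyte markers summed to 0.0140% to 0.0194% at 10 and 100 nM and 0.0109% to 0.0245% in vehicle and 1 nM, and fibroblast and mural markers to 0.0151% to 0.0226% at 10 and 100 nM and 0.0106% to 0.0184% in vehicle and 1 nM. PTPRC, the pan-leukocyte CD45, had at most 0.767 counts, and DCN, a fibroblast matrix gene, was at 0 throughout. All libraries came from the same line. In bulk RNA, fewer cells of the line expressing a marker and less of its RNA per cell cannot be told apart. Whether these shares had a part in the results was not tested.

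Many transcripts of the protein synthesis and respiratory machinery fell. All 78 tested cytosolic ribosomal protein genes had a lower mean at 10 and 100 nM, and 56 were called (71.8%, against 19.3% of all tested genes), with a median of -0.93. RPL41, of the large ribosomal subunit, had 20529.6 to 46453 counts (median 29225) at 10 and 100 nM, against 24999 to 131387 (median 84407) in vehicle and 1 nM, a difference of -1.35 ± 0.39. The lowest count in vehicle and 1 nM was replicate 1 at 1 nM, inside the range at 10 and 100 nM. On reads scaled by the library total the list kept its side, with a median of -0.34 and 29 called lower.

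Of 59 tested nuclear genes of the respiratory chain, 28 were called lower (47.5%) and 0 higher, with a median of -0.71. Of all tested genes, 19.3% were called lower at the deposited scaling, the share to set beside each list of this paragraph. With reads scaled by the library total, 42.0% of all tested genes were called higher and 8.85% lower, with a median of 0.63. In that scaling 13 of the respiratory chain genes were lower and 7 higher, with a median of -0.12. UQCRC1, a core subunit of complex III, had 2633 to 4629 counts (median 3355) at 10 and 100 nM, against 2832 to 11742 (median 9514) in vehicle and 1 nM, and COX6B1, a subunit of cytochrome oxidase, differed by -1.39 ± 0.39. Of 13 mitochondrially encoded genes, 6 were called lower (46.2%) and 0 higher, and on reads scaled by the library total 2 were lower and 1 higher. MT-ND4, a complex I subunit, differed by -1.35 ± 0.45, whereas MT-COX1, the catalytic subunit of cytochrome oxidase, was not called at -0.44 ± 0.27 and its sign turned on reads scaled by the library total. Of 33 proteasome subunits, 11 were called lower (33.3%) and 0 higher, with a median of -0.29. On reads scaled by the library total 4 were called higher and 5 lower. The sign of their median turned there, to 0.30, which lay below the 0.63 of all genes.

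The pooled comparison also named 4 lower genes without overlap. PPP1R3E, a glycogen-targeting subunit of protein phosphatase 1, had 123 to 166 counts (median 153) at 10 and 100 nM, against 199 to 249 (median 219.7) in vehicle and 1 nM, a difference of -0.59 ± 0.15. By rising dose it averaged 213 ± 16.4 in vehicle, 229.5 ± 20.6 at 1 nM, 131 ± 13 at 10 nM and 162 ± 3.23 at 100 nM (SD, n = 3 each), and replicate 1 at 1 nM had 208. GATD1 had 725 to 935 counts (median 870.4) at 10 and 100 nM, against 1099 to 2538 (median 1462) in vehicle and 1 nM. GPR173, an orphan receptor, differed by -0.53 ± 0.18, and POLH, the polymerase that copies past ultraviolet lesions, by -0.47 ± 0.17. On reads scaled by the library total these 4 genes were not called, in a fit where the median of all genes was 0.63. PPP1R3E was at -0.01, GATD1 at -0.31, GPR173 at 0.05 and POLH at 0.12, all below that median.

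Genes tied to the known action of PFOA on PPAR-alpha were called at shares near those of all genes. Of 25 tested PPAR targets and fatty acid oxidation genes, 3 were called higher (12.0%) and 6 lower (24%). The shares of all tested genes were 17.8% and 19.3%. The receptor gene PPARA had 62.3 to 98.0 counts (median 77.9) at 10 and 100 nM, against 54.4 to 87.7 (median 63.0) in vehicle and 1 nM, and was not called. CPT1A, the gate of mitochondrial fatty acid uptake and a PPAR target, differed by 0.51 ± 0.19 (limma, adjusted p = 0.0535). On reads scaled by the library total it differed by 1.10 with a call, beside the 0.63 of all genes. ANGPTL4, a secreted lipase inhibitor strongly induced by PPAR agonists, was called lower at -1.28 ± 0.47. PPARG, PDK4, PLIN2, FABP3 and CD36 were below the filter.

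Of 24 tested genes of cholesterol synthesis and uptake, 9 were called higher (37.5%) and 5 lower (20.8%), with a median of -0.11. The shares of all tested genes were 17.8% and 19.3%. HMGCS1, which makes the substrate of HMG-CoA reductase, differed by 1.43 ± 0.38 and SQLE, squalene epoxidase, by 1.63 ± 0.48, while EBP, a later sterol isomerase, differed by -1.31 ± 0.39. Glycolysis genes also split within a pathway. HK2, a hexokinase, and PFKFB3, which makes the activator of phosphofructokinase, were called higher at 1.30 ± 0.36 and 1.19 ± 0.35, while GAPDH and ALDOA, abundant enzymes of the pathway, were called lower at -1.51 ± 0.47 and -1.44 ± 0.43. Over the 30 tested genes of hypoxia and glycolysis, 6 were called higher (20.0%) and 8 lower (26.7%). Endoplasmic reticulum chaperones had 6 of 24 called higher (25.0%, against 17.8% of all tested genes) and 0 lower, among them HSPA5, the chaperone BiP, at 0.83 ± 0.27 and DNAJB9, its co-chaperone, at 1.43 ± 0.39. CHAC1, a glutathione-degrading target of ATF4, was called lower at -1.75 ± 0.45 in a list with 5 of 35 higher and 7 lower.

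Other stress, immune and growth lists had calls in both directions, to be set against the 17.8% higher and 19.3% lower of all tested genes. Of 29 tested interferon response genes, 3 were called higher (10.3%) and 9 lower (31.0%), with a median of -0.20. With reads scaled by the library total the sign of the median turned, to 0.39, which lay below the 0.63 of all genes. There 10 interferon response genes were called higher and 8 lower, beside 42.0% and 8.85% of all tested genes. Of 27 genes of the NRF2 and oxidative stress response, 6 were called higher and 7 lower, and of 22 heat shock chaperones, 3 higher and 4 lower. Among growth and division genes, mitosis had 3 of 34 higher (8.82%) and 4 lower (11.8%), and DNA replication 7 of 35 higher (20.0%) and 4 lower (11.4%). Of 25 p53 targets, 8 were called higher (32.0%) and 4 lower (16%).

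On reads scaled by the library total, where 42.0% of all tested genes were called higher and 8.85% lower, most lists had more higher calls than at the deposited scaling. Mitosis had 18 higher and 1 lower, DNA replication 16 and 1, p53 targets 14 and 2, endoplasmic reticulum chaperones 18 and 0 and heat shock chaperones 15 and 3. Among signalling lists, MAP kinase feedback had 14 higher and 1 lower, Notch 11 and 1, BMP and TGF-beta 16 and 1, inflammation 15 and 1 and coagulation 13 and 0. Endothelial identity had 10 higher and 4 lower, YAP targets 21 and 0, and the list of very long transcripts 28 and 0. Besides the interferon and proteasome lists, the sign of the median turned for 5 of the lists described here, each time to a value below the 0.63 of all genes. These were cholesterol synthesis (11 higher and 2 lower, median 0.48), PPAR targets (7 and 3, 0.47), hypoxia and glycolysis (13 and 7, 0.55), the ATF4 list (10 and 2, 0.23) and the NRF2 list (11 and 4, 0.27). Epithelial markers had 1 higher and 4 lower, with a median of -0.56.

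Most tested chromatin regulators and ubiquitin ligases of very long transcripts rose. Of 32 such genes, 19 were called higher (59.4%, against 17.8% of all tested genes) and 1 lower. Their median was 0.78, with 0 genes without overlap between the pools. EP300, a histone acetyltransferase, had 230.0 to 546 counts (median 356) at 10 and 100 nM, against 61.0 to 378 (median 118) in vehicle and 1 nM, and BIRC6, a giant ubiquitin ligase, differed by 1.29 ± 0.37. YAP and TEAD targets had 14 of 24 called higher (58.3%, against the same 17.8%) and 1 lower, with a median of 0.83. AMOTL2, a feedback inhibitor of YAP, differed by 1.40 ± 0.37. For EP300, BIRC6 and AMOTL2 replicate 1 at 1 nM had 378, 402 and 1175 counts, the highest of vehicle and 1 nM and inside the range at 10 and 100 nM.

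With the score on the first component as a covariate, limma called FOSB and CSRNP1, both higher. CSRNP1, a nuclear protein induced by AXIN1, was named after its values were seen. It had 1249 to 1617 counts (median 1305) at 10 and 100 nM, against 701 to 1538 (median 995) in vehicle and 1 nM, so its pools overlapped. Its difference was 0.36 ± 0.21 without the covariate and 0.89 ± 0.12 with it (adjusted p = 0.0464). At an unadjusted p under 0.05, 80 genes were higher (0.656%) and 24 lower (0.197%) in this fit.

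Of the 25 immediate early genes, 12 were higher at an unadjusted p under 0.05 in the fit with the covariate, against 0.656% of all tested genes, and all 25 had a positive estimate, with a median of 0.43. The estimates with and without the covariate were 1.33 ± 0.35 and 2.60 for EGR1, 1.25 ± 0.35 and 2.60 for FOS, 1.72 ± 0.50 and 2.22 for NR4A2, 1.16 ± 0.30 and 0.80 for NR4A1 and 0.87 ± 0.16 and 1.14 for RHOB. None of those with the covariate passed the adjustment over all genes (adjusted p = 0.419 for RHOB and 1.00 for the others). Long transcripts, YAP targets, ribosomal proteins, respiratory chain and mitochondrially encoded genes had medians between -0.06 and 0.06. They had 0 members at an unadjusted p under 0.05 in either direction, as had the interferon, NRF2, ATF4, p53 and DNA replication lists. Of all tested genes 0.656% were higher and 0.197% lower at that mark, so 0 is near the share of all genes. For IL6 the estimate was 0.69 ± 0.24, for ID2 1.00 ± 0.25, for MYC 0.31 ± 0.31 and for DUSP6 0.29 ± 0.14. The covariate itself differed between the pools, so the fit estimates a difference at an equal score for libraries that rarely shared one. The score was also computed from these same genes and libraries. A gene that follows the component therefore loses its difference in this fit, whatever the difference came from.

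**Figure D1:**
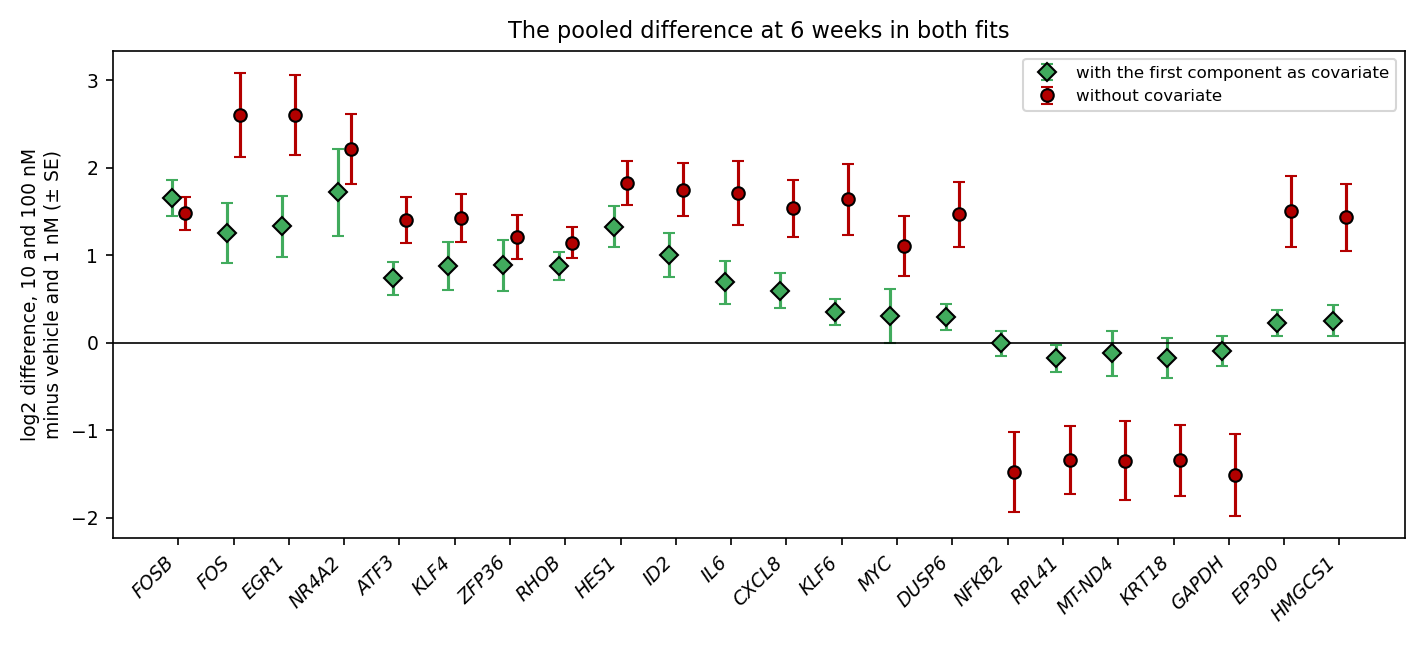
Log2 difference between 10 and 100 nM and vehicle and 1 nM, with its standard error, for 22 genes in the fit that holds the component score fixed (green diamonds) and without it (red circles). FOSB is at 1.65 and 1.48, while EP300 is at 0.22 and 1.50 and RPL41 at -0.18 and -1.35.

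Within the pools the doses were not told apart. Between 100 and 10 nM limma called 0 of 12201 genes (0%), with 14 at an unadjusted p under 0.05, and edgeR and DESeq2 called 0. Between 1 nM and vehicle limma and edgeR called 0 (0%) and DESeq2 2, with 31 genes at an unadjusted p under 0.05 by limma. FOSB differed by -0.16 ± 0.27 between 100 and 10 nM and by -0.35 ± 0.27 between 1 nM and vehicle. With 3 libraries a side, these intervals leave room for differences in either direction.

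The same pooling at 12 weeks gave 0 calls among 12304 genes by limma (0%) and by edgeR and 2 by DESeq2, with 140 at an unadjusted p under 0.05. There the pools did not overlap for 8 genes (0.0650%). ID2 had 61.1 to 128 counts (median 95.3) at 10 and 100 nM, against 29.6 to 55.7 (median 43.7) in vehicle and 1 nM at 12 weeks, so its pools did not overlap at either time, and its difference was 1.07 ± 0.27 (limma, adjusted p = 0.673). FOSB had 1298 to 4886 counts (median 3722) at 10 and 100 nM, against 1345 to 2115 (median 1899) in vehicle and 1 nM at 12 weeks, and the pools overlapped. HES1 had 361 to 1621 counts (median 1320.0) at 10 and 100 nM, against 398 to 1346 (median 793) in vehicle and 1 nM at 12 weeks.

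The 12 genes named on the higher side at 6 weeks all had positive differences at 12 weeks, between 0.30 for ZFP36 and 1.07 for ID2, and the 4 on the lower side negative ones, between -0.60 for PPP1R3E and -0.10 for POLH. A kept sign was not particular to these genes. At 12 weeks 22 of 24 YAP targets, 29 of 32 genes of very long transcripts and 0 of 78 ribosomal protein genes had a positive difference. The first component held 69.2% of the variance at 12 weeks. The difference between the 2 times was tested on 12037 genes and called 0 (0%) by limma, edgeR and DESeq2, with 91 at an unadjusted p under 0.05 by limma and a smallest adjusted p of 0.716. For FOSB it was 0.70 ± 0.31 on the log2 scale, 6 minus 12 weeks (unadjusted p = 0.0383 by limma). The data at hand thus do not show that the response at 6 weeks differed from that at 12 weeks, nor that the doses pooled here acted alike.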

How the data were processed

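RNA for a messenger library was sequenced with paired 150 bp reads by DNBSEQ, and all RNA integrity numbers were above 9, per the labels' protocols. Each deposited value is a signal for 1 gene in 1 library: its read count after the authors had scaled the library by a size factor. HISAT, Bowtie2 and DESeq2 were used with GRCh38.p14, per the submitters' processing notes. The read counter, tool versions and strand setting were not given in the sources used here. At 6 weeks 1 entry named no gene and held no value. Within each library the values were whole multiples of 1 step, so whole reads were recovered (100% of values within 0.01 of a whole read).

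The pooling, the genes and the lists were chosen with earlier results of these data known, so they give no independent support to each other. Genes were tested by limma (3.58.1, under R 4.3.3), allowing a trend with mean expression, on log2(value + 1) for genes with a mean of at least 10. The fit had a mean for each of the 4 doses, and the contrast was the average of 10 and 100 nM minus the average of vehicle and 1 nM. Tests were two-sided, with Benjamini-Hochberg adjustment over all tested genes, and a call is an adjusted p under 0.05. Fold changes on this scale understate the change of low genes. A single library measure was compared by exact permutation of the 924 splits, whose smallest p is 0.00216. The labels call the replicates biological triplicates, give no batch and do not say how flasks were kept apart over the 6 weeks, so p-values measure the spread between these libraries.

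Genes were named by rank if they were called, averaged 50 counts or more, bore an official symbol and showed no overlap between the pools. Up to 12 in each direction were taken by p. Up to 10 in each direction were also ranked by the fit with the first component. Where few were called in that fit, the genes with its smallest p were taken although not called in it. This second ranking added no gene to the first. List members could also be named, and genes sharing reads with a near copy or a readthrough gene were left unnamed. Library scores are from a principal component analysis of the tested genes. GC content and length were those of the longest GENCODE transcript, known for 98.9% of tested genes. The alternatives were other pseudocounts (0.1 and 10), filters (none and a mean of 50), quantile normalization, library weights, a single mean per pool, the first component or the ribosomal share as a covariate, a correction for GC content and length, a replicate block, each library left out, and count models of the recovered reads (edgeR 4.0.16, DESeq2 1.42.0). Scaling by total reads was added after seeing the data. The scripts were tested on simulated data. The 48 h libraries were not used here.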

Additional observations from a re-analysis of the deposited data

Results flagged for a closer look

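Dixon's test was applied to the pools of 6 for 3 library measures and the 16 genes named by rank, 38 pools in all, and marked 4, where chance marks about 1 in 20. In the pool of vehicle and 1 nM, replicate 1 at 1 nM stood apart by a ribosomal protein share of 11.4% (the others 17.3% to 19.5%), by a mitochondrial share of 5.58% (the others 9.24% to 11.4%) and by 791 counts of RHOB (the others 393 to 498). In the pool of 10 and 100 nM, replicate 1 at 10 nM stood apart by 3097 counts of HES1, above 2262 to 2554 in the other 5 libraries.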

How the results depend on the processing

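The counts of calls (higher, lower) moved with the processing. They were 2176 and 2357 as reported, 5 and 0 with no filter on low values, 5661 and 5187 with library weights, whose estimation did not converge, 321 and 2455 by edgeR and 2251 and 3623 by DESeq2. Leaving out 1 library gave 0 to 4312 higher and 0 to 4106 lower genes. Scaling by total reads, chosen after seeing the data, gave 5126 and 1080. The ribosomal share as a covariate left 0 and 0, the first component 2 and 0, and the correction for GC content and length 3 and 0. Same-numbered libraries did not all deviate together (correlations from -0.86 to 0.81 at 6 weeks and -0.85 to 0.87 at 12 weeks), so the numbers were not taken to pair them. A replicate block left 0 and 0, and 1 and 0 with the first component or with the GC and length correction. The call counts for other pseudocounts, a mean of 50, quantile normalization and 1 mean per pool were 4194 to 6541 in all. DESeq2 called 2 genes between 1 nM and vehicle and 2 at 12 weeks, and leaving out 1 library gave 0 to 1 between 1 nM and vehicle. The mitochondrial share differed by -3.21 to -2.04 percentage points without 1 library.

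Of the 63 called genes among the 78 named, 51 kept the call by edgeR, 57 with total-read scaling, 56 with quantile normalization and 1 with the first component. Values that changed sign, in log2 units, were as follows; the cause was not tested. With the first component (in brackets with the block too) FOSL1 was 0.082 (0.11), IER3 0.43 (0.43), ID3 0.29 (0.26), TGFB1 0.081 (0.076), ICAM1 0.40 (0.32), ENG 0.016 (0.024), NOS3 0.10 (0.11), MT-COX1 0.10 (0.12), ANGPTL4 0.24 (0.16) and PPARA -0.013 without the block. With the ribosomal share FOSL1 was 0.12, IER3 0.27, JAG1 -0.10, ID3 0.27, TGFB1 0.063, ICAM1 0.088, MT-ND4 0.10, MT-COX1 0.14, EBP 0.043, ANGPTL4 0.23, PPARA -0.12 and GAPDH 0.00017. With the GC and length correction, with and without the block, FOSL1 was 0.21, IER3 0.60, ID3 0.27, ICAM1 0.21, NOS3 0.19 and PPARA -0.15. With total-read scaling, where the median of all genes was 0.63, IER3 was 0.20, ICAM1 0.30 and PECAM1 0.33. NOS3 was 0.038 there, GPR173 0.052, POLH 0.12 and MT-COX1 0.15. With quantile normalization IER3 was 0.11, PECAM1 0.075, NOS3 0.0081, MT-COX1 0.48 and PPARA -0.055. JUNB was -0.00071 by edgeR and -0.085 by DESeq2, ID1 was -0.0019 by DESeq2, and without 1 library JUNB ran from -0.15 to 0.31 and ID1 from -0.12 to 0.19. Genes with a mean below 10 were not tested.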
